A study of Saccharomyces cerevisiae BY4741 with 9 samples.

Results

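The genes described here are 44 DNA replication and fork factors of budding yeast, among 7130 features whose RNA was sequenced in wild type (WT) cells and in cells carrying scc2-4. They were chosen by name from what their proteins do, with earlier results of these data known. All 44 names were found among the features. The scc2-4 allele is a temperature-sensitive mutation of SCC2, which encodes the catalytic subunit of the loader that places cohesin rings on chromosomes. All cultures had the BY4741 background, a haploid laboratory strain of mating type a, and grew exponentially in YPD rich medium with CSM, an amino acid supplement, until harvest at an optical density of 0.7. The growth temperature is not given in the sources used here. There were 3 WT and 3 scc2-4 libraries, called replicates 1 to 3 of each genotype, and the series' design calls them biological replicates. The scc2-4 libraries were depleted of ribosomal RNA. WT RNA was sequenced both with and without that depletion, and the names of the WT values do not say which preparation they hold, so a difference between genotypes cannot be told apart from one between preparations if they hold total RNA.

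Each library held 14730000 to 21930000 reads assigned to features. Across features, log2 values of WT replicate 1 correlated at 0.977 and 0.968 with the other WT libraries, which correlated at 0.993 with each other. The scc2-4 libraries correlated at 0.990 to 0.993. Of 4 auxotrophic marker genes of BY4741, LEU2 and MET17 were listed at 0 in every library and URA3 at 0 to 0.06 RPKM, while HIS3, of which this background lacks only a part, stood at 38.7 to 55.3 RPKM. All 5 genes specific to a cells (MFA1, MFA2, STE2, BAR1 and STE6) stood at 81.9 to 749 RPKM, and the 4 specific to alpha cells (MF(ALPHA)1, MF(ALPHA)2, STE3 and SAG1) at 0.09 to 10.5 RPKM. SCC2 itself stood at 7.68, 10.2 and 12.2 RPKM in WT and 16.5, 17.9 and 17.9 RPKM in scc2-4. It rose 1.71-fold (adjusted p = 0.0214), and since the allele encodes an altered protein this level does not check the genotype. RPKM means reads scaled to gene length and to the assigned reads of the library, so levels of different genes may be compared.

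Replication starts at origins bound by the origin recognition complex (ORC). In G1, ORC and Cdc6 load the ring-shaped Mcm helicase onto DNA, and in S phase the Dbf4-dependent kinase and the firing factors Sld2, Sld3 and Dpb11 bring Cdc45 and the GINS complex to it. DNA polymerase alpha-primase then starts each strand, polymerase epsilon extends the leading strand and polymerase delta the lagging strand, both held on DNA by the PCNA clamp that replication factor C loads. Many of these genes are transcribed in a burst at the passage from G1 to S phase by the factor MBF, which binds the MluI cell cycle box (MCB) in their promoters. In a culture that is not synchronised, more cells in a phase and more RNA per cell of that phase cannot be told apart.

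Transcripts of the replication genes were mostly higher in scc2-4 than in WT. Of the 44 genes, 19 rose and none fell at an adjusted p of 0.05 in limma, where 17.5% of all 6559 features tested rose and 15% fell. That is 43.2% of the replication genes. The remaining 25 did not pass. CDC6, which encodes the helicase loading factor, changed most and was the only 1 of the 44 to change at least 2-fold. Its mean level was 4.29 ± 0.860 RPKM in WT and 18.3 ± 1.53 RPKM in scc2-4 (± SD, 3 libraries each, as throughout). The other 18 rose 1.24-fold to 1.65-fold on the log2(RPKM + 1) scale. Folds are given on this scale throughout, and it understates the change of genes with low RPKM.

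The median log2 change of the 44 genes was 0.35, against 0.047 over all features tested. In 37 of the 44 the change was above 0, as it was for 54.2% of all features. In 29 of the 44 every scc2-4 value lay above every WT value, against 30.9% of all features, and in none did every scc2-4 value lie below WT, against 23.6%. Relative to the WT mean, the median log2 level of the 44 genes was -0.15 in WT replicate 1, 0.06 in WT replicate 2 and 0.14 in WT replicate 3. The scc2-4 libraries had medians of 0.34, 0.35 and 0.39. The mutant libraries thus lay close together and above all WT libraries, and WT replicate 1 was the lowest. WT replicate 1 was the lowest WT library for 25 of the 44 genes and for 17 of the 19 that rose, against 29.4% of all features. Without that library 22 of the 44 genes rose, against 20.7% of all features, and their median log2 change was 0.29.

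The 19 genes stayed higher in scc2-4 when any single library was left out, but many of them no longer passed the threshold. With scc2-4 replicate 1, 2 or 3 left out, 4, 3 and 3 of the 44 genes rose. These are 9.09%, 6.82% and 6.82% of the 44, near the 7.88%, 5.70% and 5.80% of all features that rose. At this threshold the larger share of replication genes called was not seen without any 1 of the mutant libraries. These fits have fewer samples. The median log2 change of the 44 genes in them was 0.353, 0.377 and 0.351, against 0.351 with all libraries. Without WT replicate 2 the count was 8 (18.2%, against 11.2% of all features). Without WT replicate 3 it was 22 (50.0%, against 18.5%). CDC6, RAD27 and SLD3 passed in every fit that included them, at adjusted p of up to 0.0168, 0.0429 and 0.0474, and RFC3 passed in all but those without scc2-4 replicate 2 or 3. Of the 19 genes, 10 had an adjusted p between 0.03 and 0.05.

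**Figure D1:**
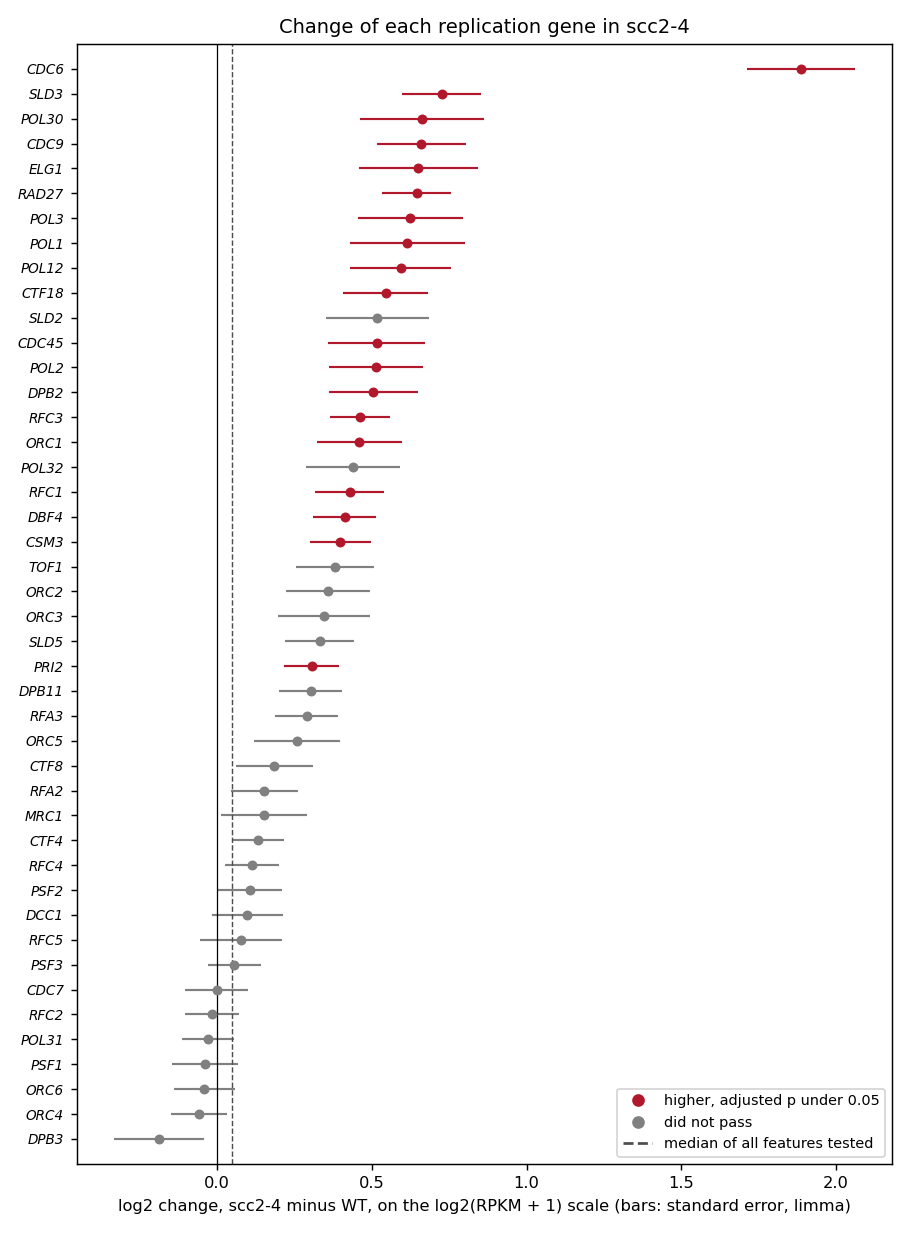
Log2 change (scc2-4 minus WT, limma estimate on the log2(RPKM + 1) scale) of each of the 44 genes, with its standard error as a bar. Red points are the 19 genes with an adjusted p under 0.05, grey points the other 25, and the dashed line is the median of all features tested, 0.047. CDC6 stands apart at 1.89, the next gene is SLD3 at 0.73, and the lowest is DPB3 at -0.19.

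**Figure D2:**
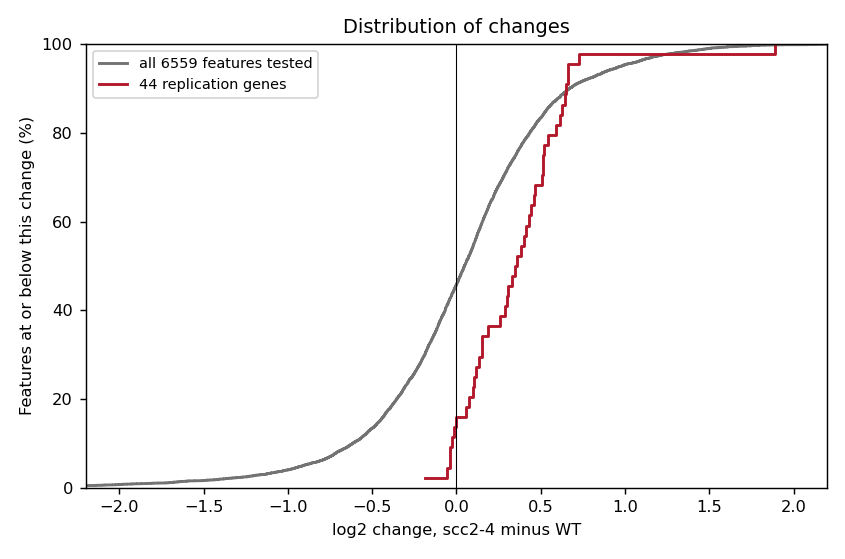
Cumulative share of features (percent, y axis) at or below a given log2 change (x axis) for the 44 replication genes in red and all 6559 features tested in grey. The red curve lies to the right of the grey curve up to a change of about 0.65, and it lacks the tails that the grey curve has on both sides apart from CDC6.

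The sequence just upstream of these genes was searched for cell cycle boxes, in the 300 bases before each annotated start codon (RefSeq, assembly R64, the sequence of sacCer3). The MCB was searched as ACGCGT, which reads the same on both strands. It was present before 23 of the 44 genes, or 52.3%, against 3.29% of 6664 protein-coding genes. In a window of 500 bases it was present before 24 of the 44 and 5.18% of all. There were 30 matches in the window of 300 bases, with 2 matches in each of 7 genes, and their first base lay 72 to 240 bases before the start codon (median 143). The box of the related factor SBF (SCB), searched as CGCGAAA or CACGAAA on either strand, was present before 9 of the 44 genes (20.5%) and 7.92% of all. In 1 case, at POL30, an MCB and an SCB match shared a base.

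Genes with an MCB match included more of those that rose. Of the 23 replication genes with a match, 14 rose, with a median log2 change of 0.51, and of the 21 without a match 5 rose, with a median of 0.26. Outside the 44 genes and chromosomes I and IX, 184 protein-coding genes tested had a match, and 45 of them rose and 23 fell (median log2 change 0.12). Replication and G1/S genes that are not among the 44 were not left out of this comparison. Of 5748 such genes without a match 15.2% rose (median 0.02). These are counts of letters and calls, and no difference between them was tested. Among the 44 genes, MCB matches were present before POL1, POL12 and PRI2 of polymerase alpha-primase, POL2 and DPB2 of polymerase epsilon, and POL3, POL31 and POL32 of polymerase delta, and before none of the 6 ORC genes.

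To show how the box lies, 6 of these upstream sequences are given 5′ to 3′ on the strand of the gene, ending at the base before the start codon, with each ACGCGT in capitals. They were picked after the values were seen: CDC6 has the largest change, RAD27, POL1 and POL30 rose and carry 1 or 2 matches, SLD3 rose with no match in this window, and POL31 did not pass and carries a match. The regions in R64 are chrX:69038-69337 (plus strand) for CDC6, chrXI:225876-226175 (minus strand) for RAD27, chrXIV:429787-430086 (plus strand) for POL1, chrII:425767-426066 (minus strand) for POL30, chrVII:295632-295931 (plus strand) for SLD3 and chrX:448902-449201 (plus strand) for POL31. The last 97 bases of the CDC6 window lie in YJL195C, a dubious open reading frame on the other strand.
CDC6: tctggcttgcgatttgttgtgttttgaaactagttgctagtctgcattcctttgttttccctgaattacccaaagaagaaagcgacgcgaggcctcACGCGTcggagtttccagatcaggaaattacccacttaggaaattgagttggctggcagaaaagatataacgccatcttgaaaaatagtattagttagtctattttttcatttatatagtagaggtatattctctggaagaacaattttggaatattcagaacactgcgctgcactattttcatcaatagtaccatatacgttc
RAD27: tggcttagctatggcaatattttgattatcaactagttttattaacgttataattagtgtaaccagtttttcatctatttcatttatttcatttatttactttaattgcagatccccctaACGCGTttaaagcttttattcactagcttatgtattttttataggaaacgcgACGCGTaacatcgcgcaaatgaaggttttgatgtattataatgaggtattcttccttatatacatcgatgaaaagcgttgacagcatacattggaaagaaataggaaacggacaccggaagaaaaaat
POL1: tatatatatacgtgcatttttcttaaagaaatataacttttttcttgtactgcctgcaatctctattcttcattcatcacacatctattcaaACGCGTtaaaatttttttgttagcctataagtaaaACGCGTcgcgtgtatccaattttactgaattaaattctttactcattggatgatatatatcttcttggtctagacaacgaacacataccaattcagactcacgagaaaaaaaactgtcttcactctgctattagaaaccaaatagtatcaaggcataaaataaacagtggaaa
POL30: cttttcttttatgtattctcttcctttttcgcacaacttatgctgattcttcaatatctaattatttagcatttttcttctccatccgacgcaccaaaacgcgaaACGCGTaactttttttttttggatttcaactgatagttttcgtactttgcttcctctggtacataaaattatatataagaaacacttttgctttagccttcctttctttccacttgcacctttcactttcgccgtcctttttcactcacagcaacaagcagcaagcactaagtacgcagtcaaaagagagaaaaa
SLD3: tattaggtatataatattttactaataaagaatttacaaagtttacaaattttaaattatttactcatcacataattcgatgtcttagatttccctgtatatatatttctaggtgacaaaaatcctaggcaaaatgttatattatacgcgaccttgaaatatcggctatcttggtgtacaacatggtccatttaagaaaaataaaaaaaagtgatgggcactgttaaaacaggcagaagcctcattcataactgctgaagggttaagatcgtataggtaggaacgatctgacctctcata
POL31: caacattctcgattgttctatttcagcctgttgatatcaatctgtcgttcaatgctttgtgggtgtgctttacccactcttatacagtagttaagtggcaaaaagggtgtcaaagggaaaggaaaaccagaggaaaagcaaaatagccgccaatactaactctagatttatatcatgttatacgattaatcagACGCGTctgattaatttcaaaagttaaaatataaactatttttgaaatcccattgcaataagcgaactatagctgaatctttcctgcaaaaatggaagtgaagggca

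**Figure D3:**
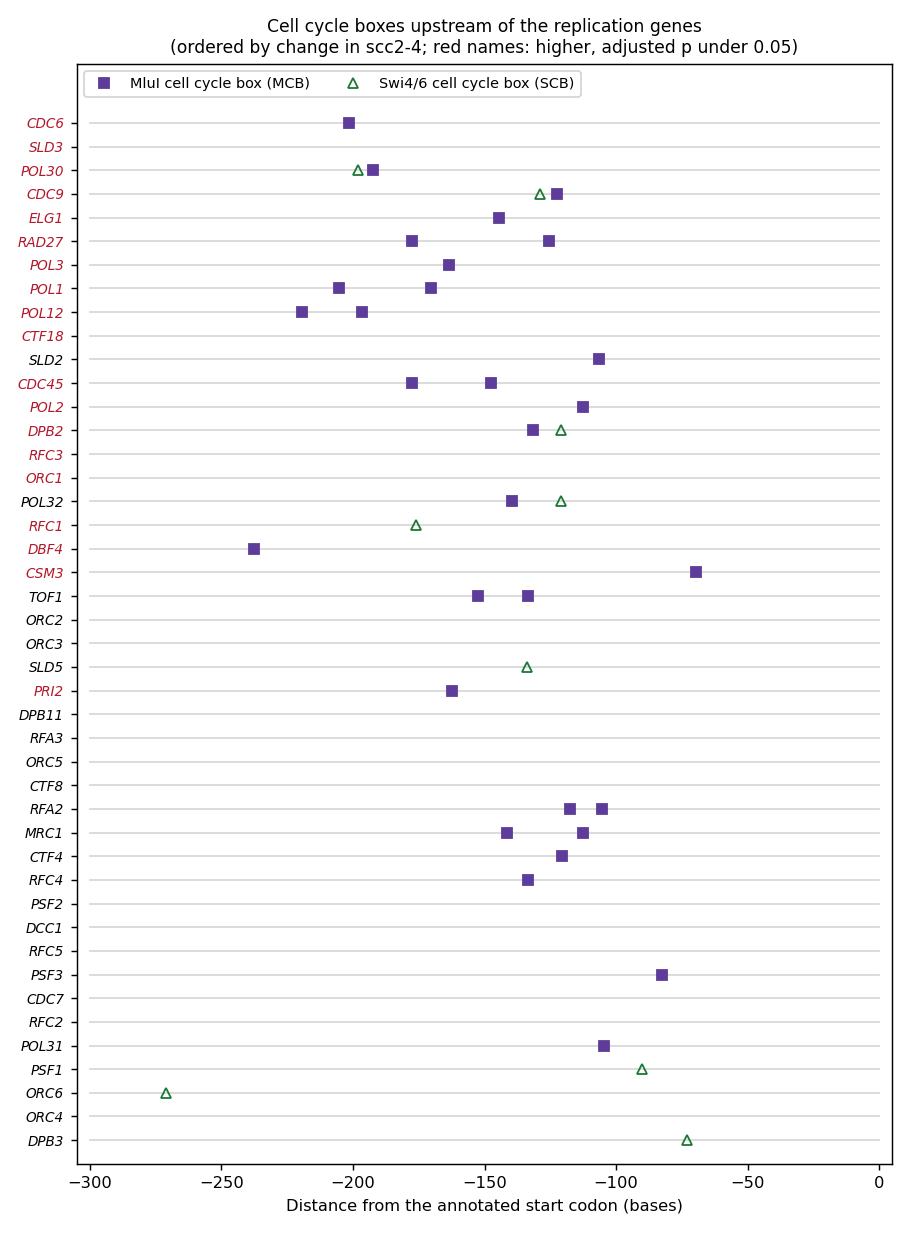
Positions of MCB matches (filled squares) and SCB matches (open triangles), at their centres, in the 300 bases before the start codon (x axis, bases; 0 is the start codon) for each of the 44 genes. Genes are ordered by their change in scc2-4 from the largest at the top, and red names mark the 19 that rose. Matches cluster between about 100 and 200 bases before the start codon and are denser in the upper part of the plot.

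In WT the replication genes were mostly expressed at modest levels. Their mean WT levels ranged from 3.56 RPKM for SLD3 to 95.0 RPKM for POL30, with a median of 16.3 RPKM, and 35 of the 44 lay below 28.0 RPKM, the median of protein-coding genes tested. Their spread between replicates on the log2 scale was like that of other features in WT (median SD 0.170, against 0.183 over all features) and was smaller among scc2-4 libraries (0.0741, against 0.108). The 44 genes lie on 12 chromosomes and none lies on chromosome I or IX, on which the median log2 change of all features tested was 0.27 and 0.81. Replication genes on these chromosomes, among them RFA1 on I and PRI1 and MCM10 on IX, are not among the 44. They were counted with the further replication genes below.

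**Figure D4:**
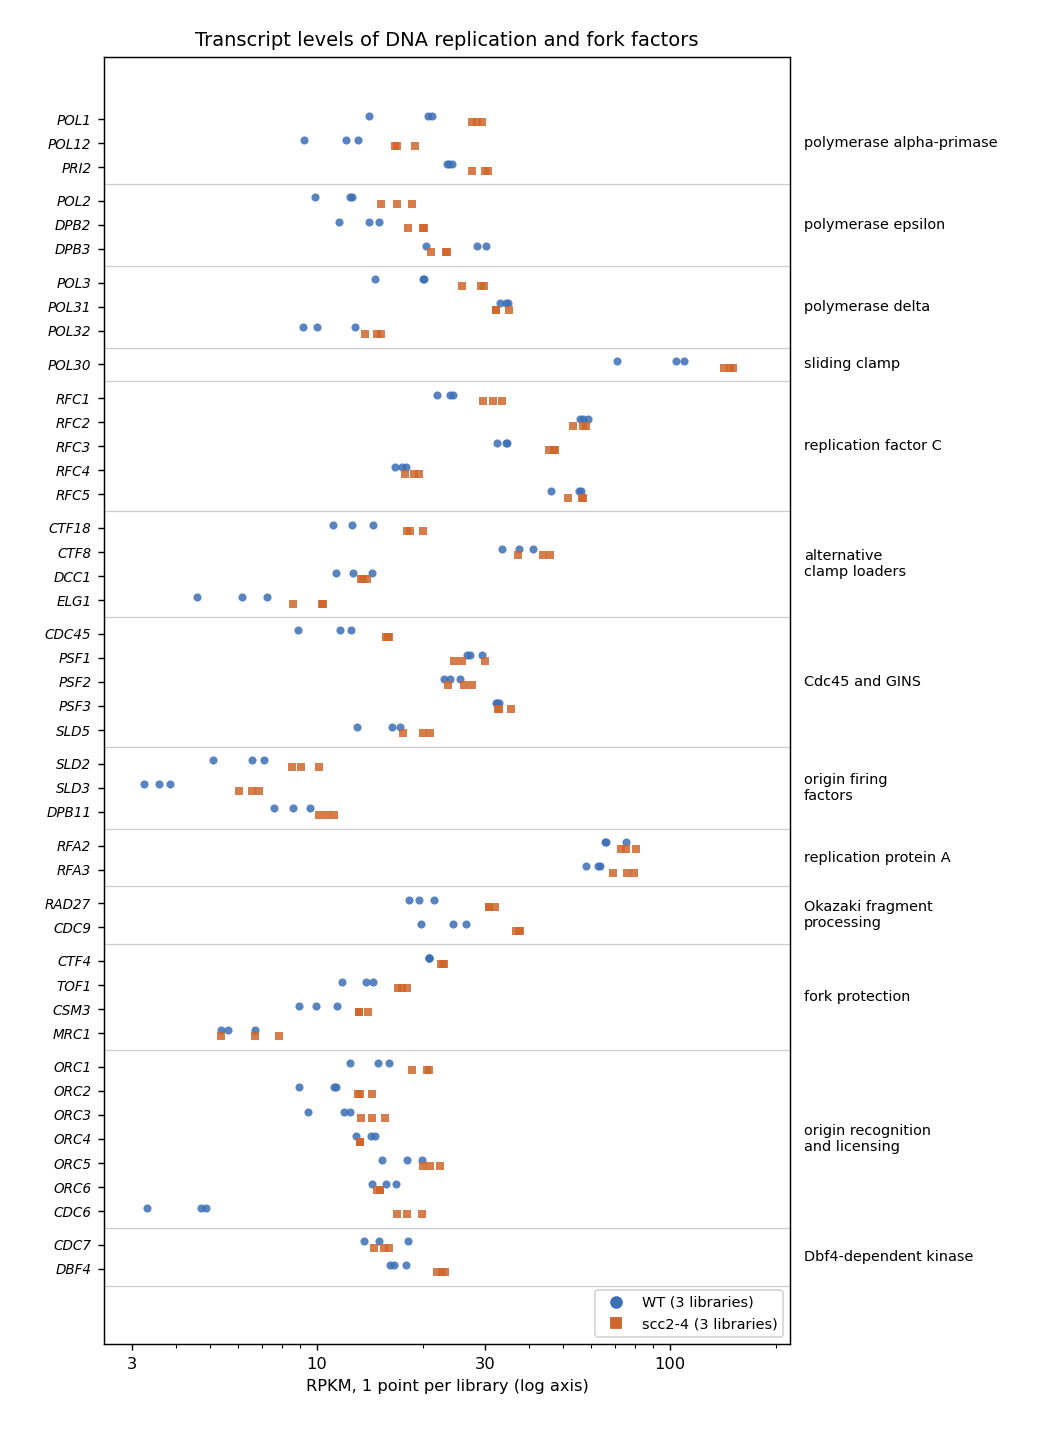
RPKM of each of the 44 genes in each library on a log axis, grouped by role. Blue circles are the 3 WT libraries and orange squares the 3 scc2-4 libraries. POL30, RFA2 and RFA3 have the highest levels and SLD3 and CDC6 the lowest in WT, and CDC6 shows the widest gap between genotypes.

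The licensing gene CDC6 (YJL194W, chromosome X, 69338 to 70879, plus strand) stood at 3.30, 4.72 and 4.85 RPKM in WT and at 16.9, 18.1 and 19.9 RPKM in scc2-4, here and below in the order of replicates 1 to 3. The groups were far apart, with the lowest mutant value more than 3 times the highest WT value. These values correspond to 75, 127 and 132 reads in WT and 476, 611 and 458 in scc2-4. The change was 3.70-fold (log2 1.89 ± 0.18 SE, adjusted p = 0.00168), and the ratio of the mean RPKM values was 4.26. Without WT replicate 1 the log2 change was 1.70. By log2 change it ranked 14 of 6559 features tested. CDC6 overlaps YJL195C, which rose likewise from 4.36 ± 0.184 to 17.9 ± 0.558 RPKM, and reads from the shared stretch cannot be assigned to either. The neighbours on either side of this pair, ELO1 and YJL193W, did not pass (1.23-fold and 1.28-fold higher, adjusted p = 0.0782 and 0.0767).

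The subunits of ORC, which marks origins, moved less. ORC1, the largest subunit and an ATPase, stood at 12.4, 14.97 and 16.0 RPKM in WT and 20.9, 20.6 and 18.6 RPKM in scc2-4. Its groups did not overlap, and it rose 1.37-fold (adjusted p = 0.0402). The other 5 ORC genes did not pass. ORC2, ORC3 and ORC5 had every mutant value above WT, with means of 10.5, 11.3 and 17.7 RPKM in WT and 13.6, 14.4 and 21.2 RPKM in scc2-4 (adjusted p = 0.0826, 0.111 and 0.187). ORC4 stood at 14.3, 14.7 and 12.9 RPKM in WT and 13.3, 13.3 and 13.2 RPKM in scc2-4. ORC6 stood at 15.7, 14.4 and 16.8 RPKM in WT and 15.1, 14.8 and 15.1 RPKM in scc2-4. In both the groups overlapped, and their log2 changes were -0.06 ± 0.09 and -0.04 ± 0.10 (SE).

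Among the genes that fire licensed origins, SLD3, whose protein carries Cdc45 to the loaded helicase, stood at 3.59, 3.25 and 3.84 RPKM in WT and 6.02, 6.55 and 6.88 RPKM in scc2-4. The groups were well separated at these low levels, which rest on 106 to 136 reads in WT and 206 to 288 in scc2-4. The change was 1.65-fold (log2 0.73 ± 0.13 SE, adjusted p = 0.00908). SLD2 and DPB11, whose proteins act with Sld3 in origin firing, also had every mutant value above WT but did not pass. SLD2 had means of 6.25 ± 1.04 and 9.25 ± 0.857 RPKM (adjusted p = 0.0504), just short of the threshold, and DPB11 of 8.58 ± 0.995 and 10.7 ± 0.550 RPKM (adjusted p = 0.0615). SLD2 passed in 7 of the alternatives tried, among them the fit to recovered reads with voom weights.

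The Dbf4-dependent kinase, which phosphorylates the Mcm helicase, has a regulatory and a catalytic subunit, and the difference between their changes was not tested. DBF4, the regulatory subunit whose level cycles, stood at 16.2, 16.6 and 17.9 RPKM in WT and 22.0, 22.7 and 23.2 RPKM in scc2-4. The groups did not overlap, and the change was 1.33-fold (adjusted p = 0.0232). CDC7, the kinase subunit, had means of 15.6 ± 2.3 and 15.4 ± 0.732 RPKM, and its log2 change of -0.002 ± 0.10 (SE) did not pass. DBF4 overlaps YDR053W and CDC7 overlaps YDL016C, each on the other strand, and reads from the shared stretches cannot be told apart.

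CDC45 and GINS are the partners of Mcm in the moving helicase. CDC45 stood at 8.87, 12.6 and 11.6 RPKM in WT and 16.0, 15.7 and 16.0 RPKM in scc2-4. The mutant libraries nearly coincided and all lay above WT (1.43-fold, adjusted p = 0.0432). Of the GINS genes none passed. SLD5 had every mutant value above WT (15.5 ± 2.25 and 19.6 ± 1.77 RPKM, adjusted p = 0.0598), PSF2 and PSF3 had log2 changes of 0.11 and 0.06, and PSF1 stood at 29.4, 27.2 and 26.7 RPKM in WT and 25.8, 24.6 and 30.1 RPKM in scc2-4, with overlapping groups.

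Of polymerase alpha-primase, which lays down the RNA-DNA primers, the 44 genes include POL1, POL12 and PRI2, and each rose. POL1, the catalytic subunit, stood at 14.1, 21.2 and 20.7 RPKM in WT and 27.6, 29.3 and 28.5 RPKM in scc2-4. POL12, the B subunit, stood at 9.23, 13.1 and 12.1 RPKM in WT and 16.9, 19.0 and 16.7 RPKM in scc2-4. In both, WT replicate 1 was the lowest library and the genotypes did not overlap (1.53-fold and 1.51-fold, adjusted p = 0.0423 and 0.0318). PRI2, the large primase subunit, varied little, at 23.4, 23.7 and 24.3 RPKM in WT and 30.5, 30.02 and 27.7 RPKM in scc2-4 (1.24-fold, adjusted p = 0.0393).

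Polymerase epsilon copies the leading strand. POL2, its catalytic subunit, stood at 9.92, 12.4 and 12.6 RPKM in WT and 15.2, 18.7 and 16.9 RPKM in scc2-4. DPB2, the essential second subunit, stood at 11.6, 14.1 and 14.99 RPKM in WT and 18.1, 20.1 and 19.97 RPKM in scc2-4. Both rose by nearly the same factor, 1.43-fold and 1.42-fold (adjusted p = 0.0381 and 0.0345), with no overlap between genotypes. DPB3, a small histone-fold subunit, had the lowest change of the 44, at 30.3, 20.4 and 28.4 RPKM in WT and 21.0, 23.2 and 23.5 RPKM in scc2-4. Its groups overlapped (log2 change -0.19 ± 0.15 SE, adjusted p = 0.339), and it overlaps YBR277C on the other strand.

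For polymerase delta, the lagging strand enzyme, POL3, the catalytic subunit, stood at 14.7, 20.1 and 20.1 RPKM in WT and 25.8, 29.9 and 29.2 RPKM in scc2-4. It rose 1.54-fold with no overlap (adjusted p = 0.0306). POL31, the B subunit, which is shared with the translesion polymerase zeta, had means of 34.1 ± 0.945 and 33.2 ± 1.57 RPKM and a log2 change of -0.03 ± 0.08 (SE), with overlapping groups. POL32, the small subunit that binds PCNA, had every mutant value above WT but did not pass (10.7 ± 1.93 and 14.6 ± 0.781 RPKM, adjusted p = 0.0638).

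POL30, which encodes PCNA, the ring that tethers polymerases, was the most abundant transcript of the group in both genotypes. It stood at 71.0, 104 and 110 RPKM in WT and 151, 142 and 148 RPKM in scc2-4. WT replicate 1 lay far below the other WT libraries, and the mutant values all lay above them (1.58-fold, adjusted p = 0.0411). It overlaps nearly the whole of YBR089W, a dubious open reading frame that rose with it, so its reads cannot be separated from that feature.

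Of the 5 clamp loader genes 2 rose and 3 did not pass. RFC1, the large subunit, stood at 21.9, 23.8 and 24.3 RPKM in WT and 29.5, 33.5 and 31.6 RPKM in scc2-4, and RFC3, a small ATPase subunit, at 32.6, 34.3 and 34.6 RPKM in WT and 45.6, 47.0 and 47.4 RPKM in scc2-4. RFC1 overlaps YOR218C, whose reads cannot be told apart from its own. Both rose with tight and separate groups, 1.35-fold (adjusted p = 0.0269) and 1.38-fold (adjusted p = 0.0149). RFC2, RFC4 and RFC5 had means of 57.1, 17.3 and 52.6 RPKM in WT and 56.1, 18.7 and 55.0 RPKM in scc2-4, and none passed (log2 changes -0.02 ± 0.09, 0.11 ± 0.09 and 0.08 ± 0.13 SE). Between the 5 genes of this complex, whose proteins act together, WT levels differed more than 3-fold.

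Of the loaders that exchange the large subunit for another, CTF18, which acts in sister chromatid cohesion and checkpoint signalling, stood at 11.1, 12.6 and 14.5 RPKM in WT and 18.1, 20.1 and 18.4 RPKM in scc2-4. ELG1, which unloads PCNA, stood at 4.60, 6.14 and 7.24 RPKM in WT and 8.60, 10.4 and 10.4 RPKM in scc2-4. In both the mutant libraries lay above WT, and they rose 1.46-fold and 1.57-fold (adjusted p = 0.0247 and 0.0397). CTF8 and DCC1, the partners specific to Ctf18, did not pass, at means of 37.3 and 12.8 RPKM in WT and 42.3 and 13.6 RPKM in scc2-4, with overlapping groups.

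Of the 44 genes, RAD27 and CDC9 act in Okazaki fragment processing, and both rose. RAD27, the flap endonuclease that trims primers, stood at 18.3, 19.5 and 21.5 RPKM in WT and 30.9, 32.0 and 30.8 RPKM in scc2-4. CDC9, the DNA ligase that seals the nicks, stood at 19.8, 24.4 and 26.5 RPKM in WT and 36.7, 37.4 and 37.7 RPKM in scc2-4. Their groups were clearly separate, with changes of 1.56-fold (adjusted p = 0.00824) and 1.58-fold (adjusted p = 0.0169), and CDC9 overlaps the dubious YDL163W. The single-strand binding genes RFA2 and RFA3, the middle and small subunits of replication protein A, were among the most abundant, with means of 69.0 ± 5.37 and 61.4 ± 2.87 RPKM in WT. In scc2-4 they stood at 76.2 ± 4.03 and 74.8 ± 5.07 RPKM and did not pass (adjusted p = 0.304 and 0.0646).

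Of the fork protection genes, which pace the helicase and signal stalling, CSM3 stood at 11.4, 9.97 and 8.91 RPKM in WT and 13.2, 13.2 and 13.99 RPKM in scc2-4. It is a case in which WT replicate 1 was the highest WT library, and it rose 1.32-fold without overlap (adjusted p = 0.0228). TOF1, which forms a complex with Csm3, had every mutant value above WT and just missed the threshold (13.4 ± 1.35 and 17.5 ± 0.486 RPKM, adjusted p = 0.0534). CTF4, the hub that links helicase and polymerase alpha and also acts in cohesion, had the smallest relative spread in WT of the 44, at 20.8 ± 0.0557 and 22.8 ± 0.233 RPKM, with no overlap and a change of 1.10-fold that did not pass (adjusted p = 0.254). MRC1, the checkpoint mediator at the fork, had means of 5.89 ± 0.696 and 6.64 ± 1.25 RPKM with overlapping groups.

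Both values of a ratio within a library share its scaling factor, so ratios between partner transcripts do not depend on that factor. An effect that differs between genes, for example by length, would remain in the ratios. The pairs were chosen after the changes were seen, mostly as a gene that rose over a partner that did not, so both the direction and the size of the differences follow from that choice, and the ratios are given as a description. The ratio of POL3 to POL31 was 0.420, 0.607 and 0.585 in WT and 0.736, 0.925 and 0.905 in scc2-4, so that the catalytic subunit transcript came close to the level of the B subunit. POL2 to DPB3 was 0.328, 0.608 and 0.442 in WT and 0.721, 0.803 and 0.718 in scc2-4. RFC3 to RFC2 varied least, at 0.552, 0.616 and 0.611 in WT and 0.802, 0.879 and 0.819 in scc2-4. DBF4 to CDC7 was 0.890, 1.10 and 1.31 in WT and 1.41, 1.55 and 1.45 in scc2-4. CDC6 to ORC6 was 0.210, 0.328 and 0.289 in WT and 1.12, 1.22 and 1.32 in scc2-4, so that CDC6 passed from well below the level of an ORC subunit to above it.

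**Figure D5:**
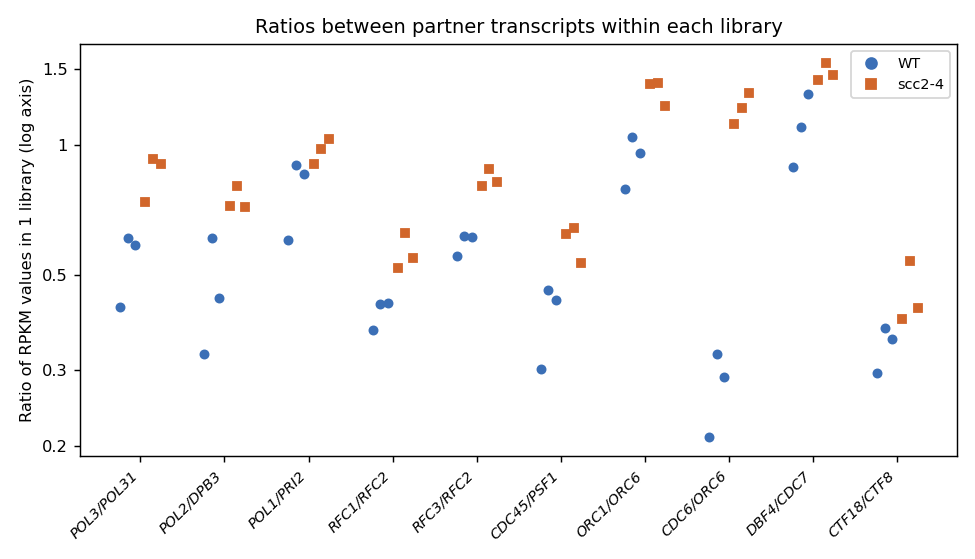
Ratio of the RPKM values of partner genes within each library (log axis), for 10 pairs chosen after their changes were seen. Blue circles are WT and orange squares scc2-4 libraries. The ratio of CDC6 to ORC6 differs most, with a mean of 0.276 in WT and 1.22 in scc2-4, and for DBF4 to CDC7 the highest WT value, 1.31, comes near the lowest mutant value, 1.41.

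Across the 44 genes, longer genes had larger changes: the Spearman correlation of the log2 change with gene length was 0.439, and 0.383 without WT replicate 1. Over 5976 protein-coding genes tested outside chromosomes I and IX it was 0.083. The genes of a library share its depth and RNA quality, and the part of length in the result was not tested. The catalytic subunit genes POL1, POL2 and POL3 are long, at 4407, 6669 and 3294 bases, and rose. The GINS genes are short, at 585 to 885 bases, and did not pass. Against this order, POL30 and CSM3, at 777 and 954 bases, are short and rose. TOF1 and MRC1, at 3717 and 3291 bases, are long and did not pass.

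Other genes of replication and of its timing moved in both directions. Of 42 further replication genes 12 rose and none fell (median log2 change 0.29). The smallest p-values belonged to MCM10, a helicase activation factor (4.10 ± 1.02 to 15.4 ± 1.15 RPKM), RNR3, a damage-inducible subunit of ribonucleotide reductase (4.25 ± 0.755 to 16.7 ± 4.36 RPKM), and PRI1, the catalytic primase subunit (29.7 ± 2.39 to 55.5 ± 1.99 RPKM). All 3 lie on chromosome IX, where genes were higher in general, and the changes of MCM10 (3.28-fold) and RNR3 (3.35-fold) were larger than the chromosome's median. None of the 6 Mcm helicase subunit genes passed. MCM3 came nearest (40.9 to 54.8 RPKM, adjusted p = 0.0516) and MCM5 was flat (41.4 to 40.5 RPKM, adjusted p = 0.857).

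Of 14 regulators and cyclins of the G1/S passage, 8 rose and 3 fell. The cyclin genes PCL1 (2.31-fold, adjusted p = 0.00294) and CLB5 (1.61-fold, adjusted p = 0.00690) rose, and SIC1, the inhibitor of S phase kinase, fell 1.59-fold (adjusted p = 0.00690). SWI6, the shared subunit of MBF and SBF, and WHI5, the SBF repressor, also fell, and SWI4, the SBF subunit, rose (adjusted p = 0.0123, 0.0283 and 0.0118). MBP1, the DNA-binding subunit of MBF, did not pass (10.3 to 10.3 RPKM). These 4 were named after their values were seen. Of the 8 core histone genes, whose transcripts peak in S phase, 3 fell and 5 did not pass. HTB1, HTA1 and HHT2 fell 1.55-fold, 1.61-fold and 1.34-fold (adjusted p = 0.00663, 0.00692 and 0.0354). In all 8 histone genes every mutant value lay below WT, as it did for 23.6% of all features. Of 6 mitotic genes 4 rose, led by CLB2 (1.84-fold, adjusted p = 0.00690), CLB1 (1.85-fold, adjusted p = 0.00757) and CDC20 (1.43-fold, adjusted p = 0.0115), and of 5 genes of the M/G1 transition PIR1 fell (1.59-fold, adjusted p = 0.0167) and the other 4 did not pass. The part of cell cycle distribution in the replication genes' change was not tested.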

How the data were processed

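RNA was sequenced from WT and scc2-4 cultures of BY4741. The authors deposited 1 RPKM value per feature and library, for 7130 features in 6 libraries. The submitters' processing notes name Bowtie and sacCer3. The aligner's version, the counting tool and any use of strand were not given in the sources used here. R64 lists 6048 of the identifiers, with identical start and end for 99.8% of them and for all 44 replication genes. Dividing low values by the worth of 1 read recovered the reads per library, and 100% of the low values came within 0.1 of a whole read. The number of reads limits precision most for the weakest genes.

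A minimum mean of 1 RPKM left 6559 features, among them all 44 replication genes. Their log2(RPKM + 1) values were centred per library on the median feature. Before centring, the median log2 change over features was 0.037. The test of scc2-4 against WT used limma 3.58.1 under R 4.3.3 (empirical Bayes moderation with a trend, two-sided, Benjamini-Hochberg adjustment over all features tested, threshold 0.05). The test was also run on simulated data, and the outcome is not given here. The simulated noise was independent between features and had the same spread in both genotypes, unlike the measured libraries. Such data cannot show how the calls behave where a whole library deviates. Promoters and figures were made with Python 3.11.15, numpy 2.4.6, pandas 2.3.3 and matplotlib 3.10.9. The replicates are biological by the series' design, and where they were not separate cultures p-values measure only the spread between libraries. No replicate repeated another within counting error (chi-square per degree of freedom 23.5 to 127).

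The genes and lists were chosen with earlier results of these data known. All 44 genes are named, with the value in every library for those past the threshold and the 4 lowest changes, and up to 3 genes with the smallest p from each further list. Alternatives covered scaling, pseudocount, filter, features left out, variance model, recovered reads with voom weights, a replicate block and each library left out. Ribo-depleted and total RNA of WT were not compared here.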

Additional observations from a re-analysis of the deposited data

How the results depend on the processing

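Across 18 alternatives, none of the 19 genes that rose changed sign, none of the 44 was called lower, and the median log2 change of the 44 ranged from 0.273 to 0.411. Of the 19, 13 passed in all 12 alternatives that kept every library, where the gene was included. CDC45, ORC1 and PRI2 lost the call with median-of-ratios scaling, CDC45, ELG1 and POL30 with quantile normalization, CDC45 and POL1 with no filter on low values, and PRI2 with the replicate block. Leaving out 1 library gave 3 to 22 replication genes called higher, 373 to 1360 features higher and 386 to 1123 lower, which also has fewer samples. The same fits called 3 to 16 further replication genes higher and 0 to 1 lower, 4 to 8 G1/S genes higher and 1 to 3 lower, 2 to 4 mitotic genes higher and 0 to 1 M/G1 genes lower. With median-of-ratios scaling 1 further replication gene was called lower, and the cause was not tested. Genes near no change crossed 0 when a library was left out: RFC2 (-0.054 to 0.018), RFC5 (-0.052 to 0.148), PSF1 (-0.138 to 0.018), ORC6 (-0.081 to 0.031) and CDC7 (-0.065 to 0.064). Without chromosomes I and IX RFC2 was at 0.009 and CDC7 at 0.023, and without overlapping features RFC2 was at 0.001. With the replicate number as a block, 21 of the 44 genes were called, 18 of them among the 19. Over all features, too, more were called higher and more were called lower with this block than without it. Same-numbered libraries' deviations from their group means correlated at 0.305, -0.0622 and 0.353, so the numbers were not taken to pair the libraries, and WT replicate 2 correlated best with scc2-4 replicate 3 (0.260).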
